A study of Mus musculus with 16 samples.

Results

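The step from common dendritic cell progenitors (CDP) to plasmacytoid dendritic cells (pDC) was read from H3K27ac, acetylation of histone H3 that marks promoters and enhancers in use. All autosomal regions of the authors' deposited list of regions called as differing between CDP and pDC were taken, which gave 68385 of the 69958 regions of that list and of the 273958 regions in the 4 lists of the series. The other 1573 regions of the list lay on the sex chromosomes and were left out. The assay was ChIP-seq on sorted cells of C57BL/6 mice, with 2 libraries for CDP and 2 for pDC. No treatment or genotype besides the strain is given for either group, and the labels used here name no sex, age, animal or culture. The 2 libraries of a group may therefore share their source, and the spread between them may be technical. RNA and input samples were not used here.

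Plasmacytoid dendritic cells are the dendritic cells specialised in making type I interferon after endosomal Toll-like receptors bind nucleic acids. They arise from CDP, which also give rise to classical dendritic cells (cDC), under the transcription factor E2-2, encoded by Tcf4, together with IRF8, SpiB and others. Acetylation at lysine 27 of histone H3 marks regulatory DNA in use, so a list of regions that gain or lose it describes which promoters and enhancers differ between progenitor and mature cell. In sorted cells, a lower signal can come from fewer acetylated cells or from less acetylation per cell, and these cannot be told apart here.

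Gene names rest on positions in the mouse build mm9 recalled from general knowledge, since no annotation of that build was used here. A locus is the recalled gene extended by 10 kb on both sides. For Irf7, Bst2, Lag3, Pacsin1, Myd88, Unc93b1, Irf5, Irf3, Irf9, Stat2 and Vmp1 only 1 point of the gene was recalled and extended. Of 41 genes, 20 positions had been noted before they were set beside gene starts of a later build, some of them by way of remembered positions in that build, and Siglech with its region in view. The other 21 were noted afterwards, those of the progenitor, cDC and other cell type genes. In 23 windows the later build places another coding gene, whose acetylation is part of the sum.

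Signals in the list are whole numbers scaled by the authors, so read depth is unknown. The direction and size of a change are the log2 of the ratio of group means, with 1 added to each mean. A region or locus is called separate when both libraries of one cell type lay above both of the other. No p-value is given per region, because the list had been chosen for differences in the same 4 libraries and an exact two-sided permutation test of 2 against 2 cannot go below 0.33. Across autosomal regions, which are not replicates, the 2 libraries of a group correlated with r = 0.936 for CDP and r = 0.950 for pDC. The median SD between them was 0.28 on the log2 scale for CDP and 0.22 for pDC. The second-listed library lay above the first by a median of 0.23 in CDP and 0.19 in pDC. Summed autosomal signal was higher in both pDC libraries than in both CDP libraries.

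As deposited, regions gaining and losing H3K27ac were similar in number, and the gains were longer. Both pDC libraries lay above both CDP libraries in 27250 regions (39.8%), and both CDP libraries lay above both pDC libraries in 25992 regions (38%). The libraries overlapped in the remaining 15143 regions, or 22.1%. Of the separate regions, 51.2% were higher in pDC as deposited and 40.1% with the 4 libraries scaled to equal autosomal totals, which moved the median log2 ratio by -0.30. As deposited, separate gains had a median log2 ratio of 1.57 and separate losses one of -1.20. That scaling makes gains smaller and losses larger, so which of them is larger in size depends on it. These medians were not taken with equal totals. Among separate regions under 500 bp the medians as deposited were alike in size, 1.48 and -1.49. A difference of at least 16-fold was reached as deposited by 3004 regions higher in pDC and 1712 higher in CDP, counts that depend on the scaling as well. The median length was 850 bp for regions higher in pDC and 650 bp for regions higher in CDP. The plot of all regions shows both arms at every signal level.

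**Figure D1:**
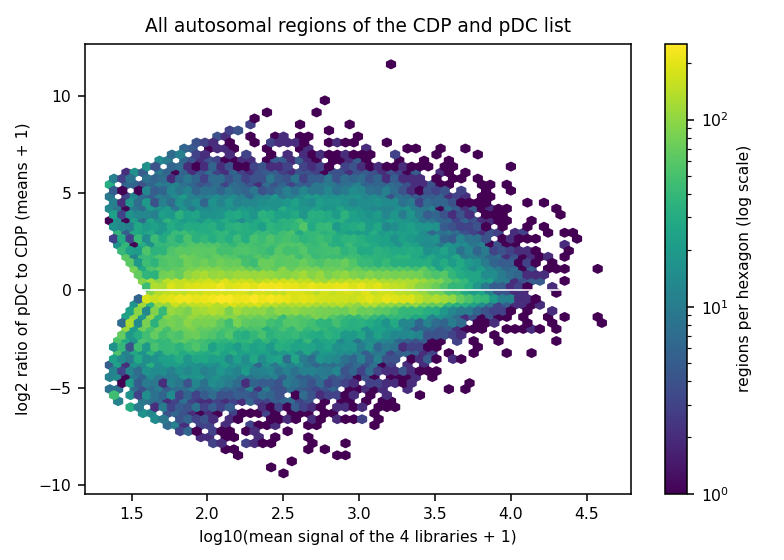
Each hexagon counts autosomal regions by the log10 of their mean signal over the 4 libraries plus 1 (x axis) and by the log2 ratio of pDC to CDP (y axis), with colour on a log scale for the number of regions. Regions above the white line at 0 had the higher mean in pDC, and the median over all regions was 0.03.

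As deposited, long regions were mostly gains. Among regions under 0.5 kb, 27.7% were separate and higher in pDC and 33.5% were separate and higher in CDP. Among the 458 regions of 5 kb or more, these shares were 79.3% and 20.5%. Of regions of at least 10 kb, 22 were higher in pDC and 8 higher in CDP. Length also decides how much signal a region sums, and its part in these shares was not tested. The shares by length were not taken with equal totals, which lower the number of gains and raise that of losses. Signal was concentrated in few regions: the 1362 regions with the largest net gain, 5% of all gains, held 36.9% of the net gain, and the matching 1300 regions held 32.8% of the net loss. Neighbouring separate regions had the same direction in 57.0% of 12637 pairs under 1 kb apart, 69.3% of 13836 pairs 1 to 10 kb apart and 60.9% of 14552 pairs 10 to 100 kb apart, against 50.0% if neighbours were unrelated. Close pairs include regions that abut with opposite directions, such as chr17:44950001-44951350 (higher in pDC) and chr17:44951351-44952100 (higher in CDP). How the list was cut into regions bears on these shares, and its part was not tested.

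**Figure D2:**
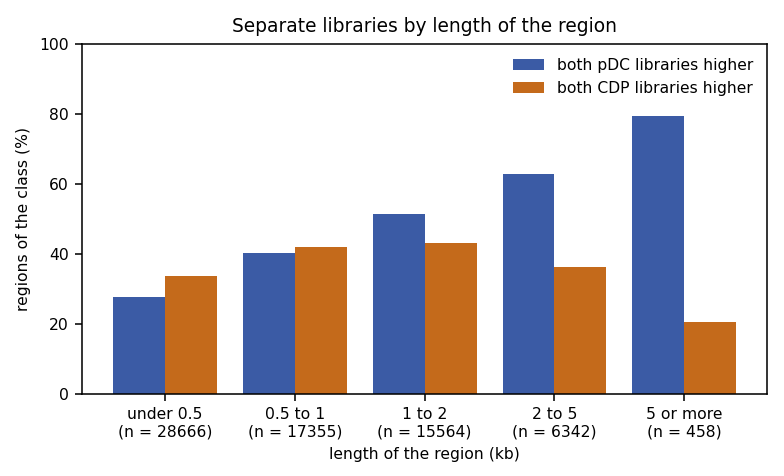
Bars give the percentage of regions in each length class (x axis, in kb, with the number of regions) whose libraries were separate and higher in pDC (blue) or in CDP (orange). With signals as deposited, the blue bars rise from 27.7% in the shortest class to 79.3% in the longest, and the orange bars end at 20.5%.

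Of the 36 loci in 5 gene lists, all had at least 1 region, and 21 were higher in pDC, 10 higher in CDP and 5 overlapped. In 18 of them the window held at least 1 separate region of each direction, not always adjacent. A locus with many regions holds both more easily, and the share over all windows was not computed. By list, 7 of 8 pDC transcription factor loci, 5 of 5 loci of other pDC-typical genes and 5 of 8 interferon pathway loci were higher in pDC, with Irf7 counted in both the first and the last of these lists. Of 13 progenitor loci, 9 were higher in CDP and 3 in pDC. The lists were drawn with earlier results of these data known, so counts, medians and shares by list are descriptive only. Of all 100 kb windows with a region, 48.8% were higher in pDC and 32.0% higher in CDP, and the share of the interferon list is near that background. Those windows have a fixed length unlike that of the locus windows, so the background is only a rough one. The median log2 ratio was 1.22 for the transcription factors, 3.41 for the pDC-typical genes, 1.02 for the interferon pathway and -0.77 for the progenitor genes, beside 0.03 over all regions. With 50 kb instead of 10 kb on either side, these medians were 0.94, 2.04, 0.30 and -0.62. Of 168 single regions at transcription factor loci, 50.6% were higher in pDC and 27.4% higher in CDP. Of 145 regions at progenitor loci, 15.9% were higher in pDC and 61.4% higher in CDP, beside 39.8% and 38% of all regions. Few genes weigh heavily in these pooled shares. Cdk6 held 46 of the 145 regions, 39 of them higher in CDP, and Runx1 held 37, with 19 higher in CDP. Runx2 held 50 of the 168.

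**Figure D3:**
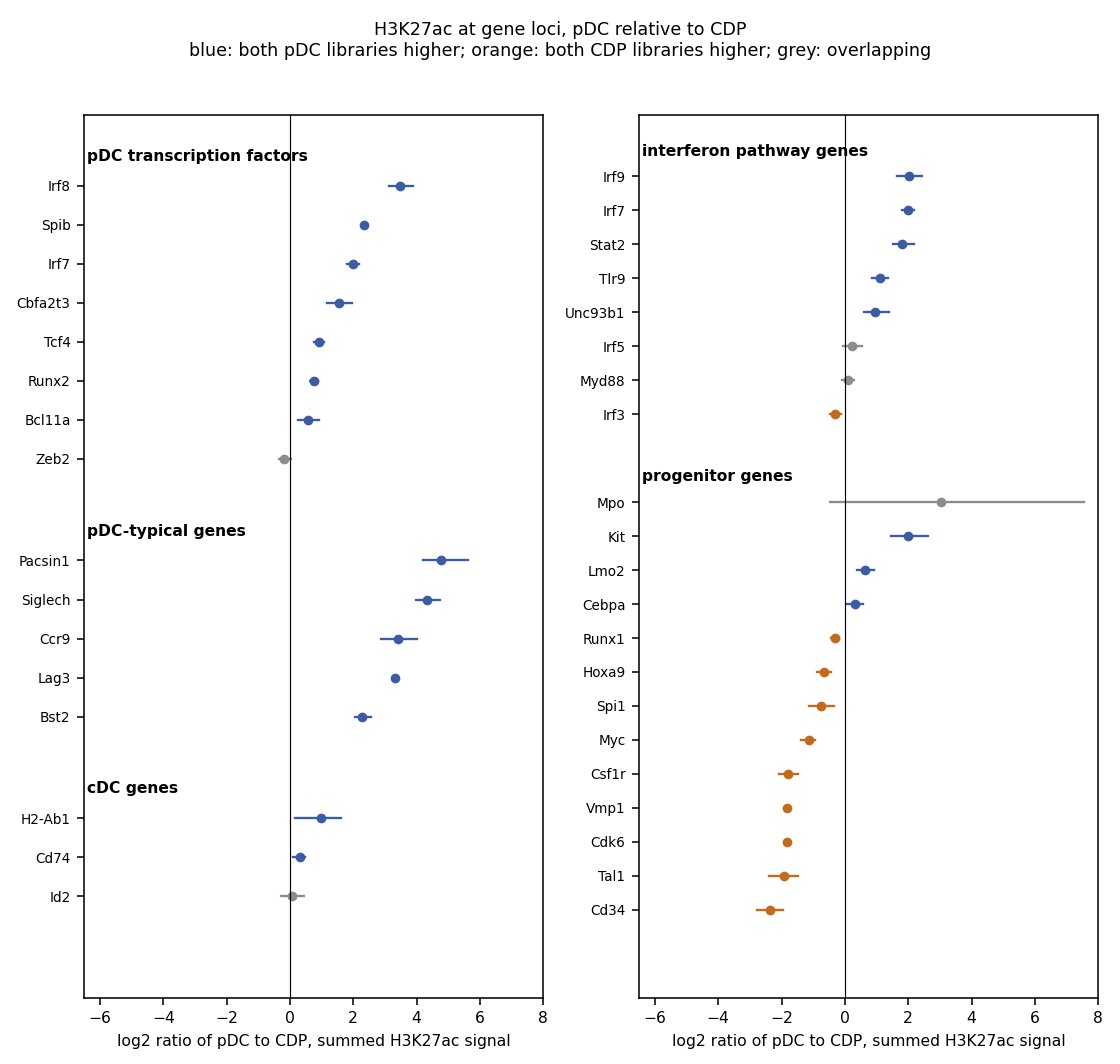
Points give the log2 ratio of pDC to CDP of the signal summed over the regions of each locus, and lines run from the lowest to the highest of the 4 ratios of a single pDC to a single CDP library. Both pDC libraries were higher at blue loci, both CDP libraries at orange loci, and the libraries overlapped at grey loci, of which Mpo has the widest range.

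The Irf8 locus carried the largest summed gain among the transcription factors. IRF8 is needed by dendritic cell progenitors and mature dendritic cells alike. The summed signal was 5848 and 9654 in the CDP libraries and 86252 and 84957 in the pDC libraries. Both pDC libraries were far above both CDP libraries, a log2 difference of 3.47 ± 0.51 (here and below, the SDs of the 2 log2 values of each group combined, n = 2 per group). A region of 29.1 kb over the gene (chr8:123258751-123287850, mm9) had 4223 and 6292 in CDP and 47131 and 43724 in pDC. The next, of 20.9 kb (chr8:123289101-123310000), lay beyond the recalled end of the gene and rose from 1568 and 3239 to 38494 and 40691. The rise was 8.64-fold in the first and 16.5-fold in the second. Farther out, a region of 16.2 kb (chr8:123310201-123326400) rose 7.16-fold. All 4 regions of the locus were higher in pDC.

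Tcf4, the gene of E2-2, gained less and changed in both directions. Its summed signal was 27672 and 32412 in CDP and 57883 and 54825 in pDC, a log2 difference of 0.91 ± 0.17 with no overlap. The locus held 35 regions on chromosome 18, of which 20 were higher in pDC and 11 higher in CDP. Its largest region, 9.40 kb long, had 6650 and 8721 in CDP and 28482 and 25640 in pDC. Another, of 3.60 kb, went the other way, with 4374 and 4107 in CDP and 728 and 1069 in pDC.

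Runx2, a runt-domain factor, was similar in this respect. Its locus had 22360 and 25779 in CDP and 41075 and 39713 in pDC, a log2 difference of 0.75 ± 0.15, from 22 regions higher in pDC and 18 higher in CDP. A single region of 11.45 kb (chr17:44864851-44876300) gained more than the locus did on balance, with 6257 and 8565 in CDP and 27466 and 24514 in pDC. At a region of 1.90 kb in the same gene (chr17:44846001-44847900), CDP had 1497 and 1814 and pDC 564 and 446.

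The remaining factors followed with separate libraries, except Zeb2. Spib, an ETS factor close to PU.1, rose from 2339 and 2643 to 12695 and 12747, a log2 difference of 2.35 ± 0.12. Cbfa2t3, a transcriptional corepressor, had 4831 and 7093 in CDP and 15912 and 18643 in pDC, or 1.53 ± 0.42. Bcl11a, a zinc finger factor, had 14902 and 23057 against 27534 and 28216, or 0.55 ± 0.45. These ran in the order Spib, Cbfa2t3, Bcl11a, and the error of Bcl11a was nearly as large as its difference. With 50 kb on either side Spib fell to 0.98. Zeb2, a zinc finger repressor, overlapped, with 17309 and 22031 in CDP and 17521 and 17311 in pDC, and 11 of its 19 regions were higher in CDP.

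**Figure D4:**
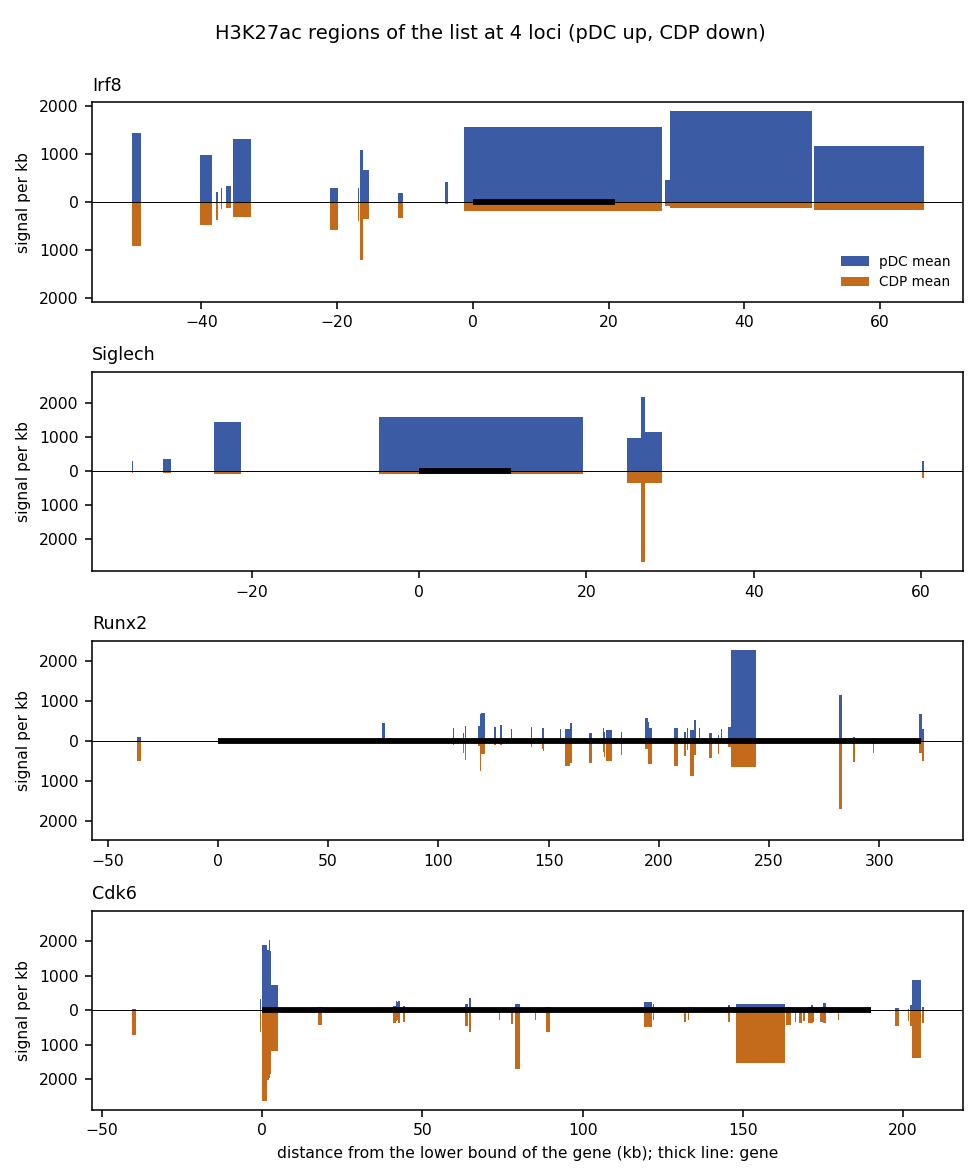
Mean signal per kb of each region is drawn upward for pDC (blue) and downward for CDP (orange), against the distance in kb from the lower bound of the recalled gene (thick line), up to 50 kb on either side. Irf8 and Siglech show broad blue blocks over and beside the gene, Runx2 shows both colours along the gene, and Cdk6 shows both colours near its lower bound and an orange block of 15.2 kb far from it.

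Genes typical of pDC had the highest median ratio of the 5 lists, although markers of B and T cells given further on were as high. The 2 B cell markers had a median of 3.49, with an error of 2.11 at Ebf1. The T cell value of 3.47 is that of 1 gene, Cd4, whose window shares regions with that of Lag3. Siglech, a sialic acid-binding receptor of mouse pDC, was covered by 1 region of 24.5 kb (chr7:63018151-63042650), with 1540 and 2350 in CDP and 37249 and 40985 in pDC. This was a log2 difference of 4.33 ± 0.44. Pacsin1, an adaptor protein of membrane trafficking, had 205 and 490 against 10040 and 9127 in a single region of 3.50 kb (chr17:27791701-27795200), or 4.78 ± 0.89. Both groups lay far apart at each of these loci. Ccr9, a chemokine receptor for homing to the gut, had 914 and 1481 against 10795 and 14738, or 3.41 ± 0.59. Lag3, an inhibitory receptor that binds MHC class II, had 1548 and 1582 against 15899 and 15264, or 3.31 ± 0.05. Bst2, the antiviral membrane protein tetherin used as a pDC marker, had 3151 and 4304 against 17716 and 18628, or 2.29 ± 0.32. Of the 15 regions at these 5 loci, 14 were higher in pDC. With 50 kb on either side the log2 difference was 1.05 at Pacsin1 and 1.70 at Lag3.

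Of the 8 interferon pathway loci, 5 were higher in pDC, 2 overlapped and Irf3 was higher in CDP. Among sensors and their partners, Tlr9, the endosomal receptor of CpG DNA, had 4737 and 6284 in CDP and 12194 and 11341 in pDC, a log2 difference of 1.09 ± 0.30. Unc93b1, which carries these receptors to endosomes, had 4822 and 7591 against 12629 and 11427, or 0.95 ± 0.47. Myd88, their signalling adaptor, overlapped, with 5627 and 5973 in CDP and 5645 and 6818 in pDC. Summed over the locus, sensor and chaperone were thus higher in pDC in every library, and the adaptor was not. The sum at Myd88 held opposite changes, with 1 of its 3 regions higher in pDC and 2 higher in CDP. The first (chr9:119242901-119246450) rose from 911 and 1360 to 2962 and 3689.

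Among the transcription factors of the pathway, Irf7, which drives interferon alpha genes, had 1685 and 2072 in CDP and 7592 and 7271 in pDC, a log2 difference of 1.98 ± 0.22. Irf5 overlapped, with 9385 and 13882 in CDP and 13447 and 13739 in pDC. Irf3 was higher in CDP, with 4127 and 5116 against 3773 and 3696, a log2 difference of -0.31 ± 0.22. Irf9 and Stat2 encode factors that act downstream of the interferon receptor. Irf9 had 1432 and 1992 in CDP and 7733 and 6181 in pDC, or 2.02 ± 0.41, and Stat2 had 3282 and 5107 against 14863 and 14566, or 1.81 ± 0.45. With 50 kb on either side the log2 difference was 0.30 at Irf9, 0.38 at Stat2, 0.30 at Tlr9 and 1.17 at Irf7.

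Promoter letters were compared because interferon-responsive genes often carry an element of GAAA, any 2 bases and GAAA. In all, 4 motifs were searched on both strands in the 250 bases before the most upstream listed start of each gene (RefSeq, build GRCm38.p6), and 31 of the 41 genes had an entry. This interferon-type element was found in 3.05% of 27026 promoters, in 1 of 4 pDC-typical, 2 of 7 interferon pathway, 0 of 7 transcription factor and 0 of 9 progenitor promoters. The ETS-IRF composite of GGAA, any 2 bases and GAAA, whose matches can overlap those of the first, was found in 2.38% of all promoters and at 1 locus gene, in the interferon list. CAGCTG, an E-box, was in 12.7% of all promoters. It was in 1 of 7 transcription factor, 0 of 4 pDC-typical, 1 of 7 interferon pathway and 0 of 9 progenitor promoters. TGTGGTT, a RUNX motif, was in 4.46% of all promoters. In the same order of lists it was in 1 of 7, 1 of 4, 1 of 7 and 0 of 9. By a first rule, the steepest locus of each of 4 lists was to be shown, but Irf8, Pacsin1, Irf9 and Cd34 held no match to any motif. The 2 promoters below were then chosen because they hold the interferon-type element and their loci were higher in pDC, after the matches had been seen. Capitals mark every motif match, and a match is a run of letters, not a site.
Bst2 (GRCm38.p6, chr8:71537473-71537722, minus strand): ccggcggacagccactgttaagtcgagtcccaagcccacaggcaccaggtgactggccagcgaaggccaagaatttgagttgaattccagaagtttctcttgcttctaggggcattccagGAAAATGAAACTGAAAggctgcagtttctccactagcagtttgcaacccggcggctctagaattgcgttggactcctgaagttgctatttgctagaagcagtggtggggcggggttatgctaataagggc
Stat2 (GRCm38.p6, chr10:128270248-128270497, plus strand): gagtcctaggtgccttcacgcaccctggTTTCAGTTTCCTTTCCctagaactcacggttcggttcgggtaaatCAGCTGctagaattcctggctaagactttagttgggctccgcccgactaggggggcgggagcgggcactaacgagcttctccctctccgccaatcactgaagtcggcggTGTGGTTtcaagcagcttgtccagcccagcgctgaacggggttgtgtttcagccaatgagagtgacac
The run in Bst2 holds 2 overlapping matches. Myd88, whose locus overlapped between the cell types, held the element as well.

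Progenitor loci were mostly higher in CDP. The largest loss of summed signal was at the 3' end of Vmp1, where the microRNA gene Mir21a lies. The window had 98475 and 98465 in CDP and 29536 and 26073 in pDC, a log2 difference of -1.82 ± 0.13. Its region of 11.9 kb (chr11:86388601-86400500) had 59962 and 66784 in CDP and 22845 and 19459 in pDC, and the next, of 10.35 kb (chr11:86400651-86411000), was 6.07-fold higher in CDP. The mature microRNA encoded there is shown, as RefSeq lists it, with its seed (bases 2 to 8) in capitals.
miR-21a-5p: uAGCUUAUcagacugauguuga
Cdk6, a kinase of the G1 phase of the cell cycle, changed along its length. It had 44300 and 44673 in CDP and 12239 and 12877 in pDC, a log2 difference of -1.82 ± 0.05, and 39 of its 46 regions were higher in CDP with none higher in pDC. A region of 15.2 kb within the gene (chr5:3488901-3504100) fell from 24031 and 22925 to 2622 and 2405. At the lower bound of the gene (chr5:3341051-3342450) the difference was 1.39-fold, with 3009 and 4349 in CDP and 2555 and 2725 in pDC.

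Other losses were at genes of stem and myeloid progenitors. Csf1r, the receptor of macrophage colony-stimulating factor, had 5498 and 7668 in CDP and 1812 and 1950 in pDC, a log2 difference of -1.81 ± 0.35. Cd34, a progenitor surface protein, had 1251 and 1674 against 241 and 324, or -2.37 ± 0.42. Tal1, a stem cell factor, had 2732 and 3507 against 660 and 987, or -1.92 ± 0.48. Myc, a growth regulator, had 5857 and 5978 against 2310 and 3057, or -1.14 ± 0.29. The lowest CDP library stood above the highest pDC library at each of these loci, but with 50 kb on either side Cd34 came to -0.09 with overlap and Csf1r to -0.73. Smaller losses were -0.77 ± 0.44 at Spi1, the gene of PU.1, and -0.67 ± 0.29 at Hoxa9.

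Runx1 held opposite changes within one gene. Summed over 37 regions it had 34786 and 38009 in CDP and 27749 and 30563 in pDC, a log2 difference of -0.32 ± 0.13. Inside it, a region of 4.40 kb (chr16:92714901-92719300) had 4564 and 5593 in CDP and 288 and 334 in pDC, a 16.3-fold loss. A region of 2.45 kb (chr16:92673951-92676400) rose from 2634 and 2880 to 3559 and 4319. In all, 19 regions were higher in CDP and 8 in pDC.

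Not every progenitor locus was higher in CDP. Lmo2, a partner of TAL1, had 6560 and 8968 in CDP and 12434 and 11726 in pDC, a log2 difference of 0.64 ± 0.32. Kit, the stem cell factor receptor, had 1 region of 1.85 kb (chr5:75971001-75972850), with 218 and 366 in CDP and 1000 and 1339 in pDC. A shift of positions from the later build had put Kit further along the chromosome, where its window held no region, and the position used was recalled after that. Cebpa, a myeloid factor, was higher in pDC by 0.33 ± 0.31, but its libraries overlapped with equal totals and with a window of 50 kb. Mpo, a granule enzyme of neutrophil precursors, had only 46 and 1 in CDP and 33 and 371 in pDC, and overlapped.

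At the 3 loci of cDC genes, values in the CDP and pDC list can be set beside those of the CDP and cDC list, which shares the CDP libraries and is scaled separately. The log2 ratio to CDP at Id2, a repressor of E proteins, was 0.08 ± 0.37 in pDC, with overlap, and 2.21 in cDC. At H2-Ab1, an MHC class II chain, it was 0.98 ± 0.82 in pDC and 3.66 in cDC. At Cd74, the invariant chain, it was 0.30 ± 0.26 in pDC and 1.55 in cDC. With equal totals the pDC libraries at H2-Ab1 and Cd74 overlapped those of CDP. At Siglech the ratios were 4.33 in pDC and 0.78 in cDC, and at Irf8 they were 3.47 and 1.65. The differences between the lists were not tested.

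**Figure D5:**
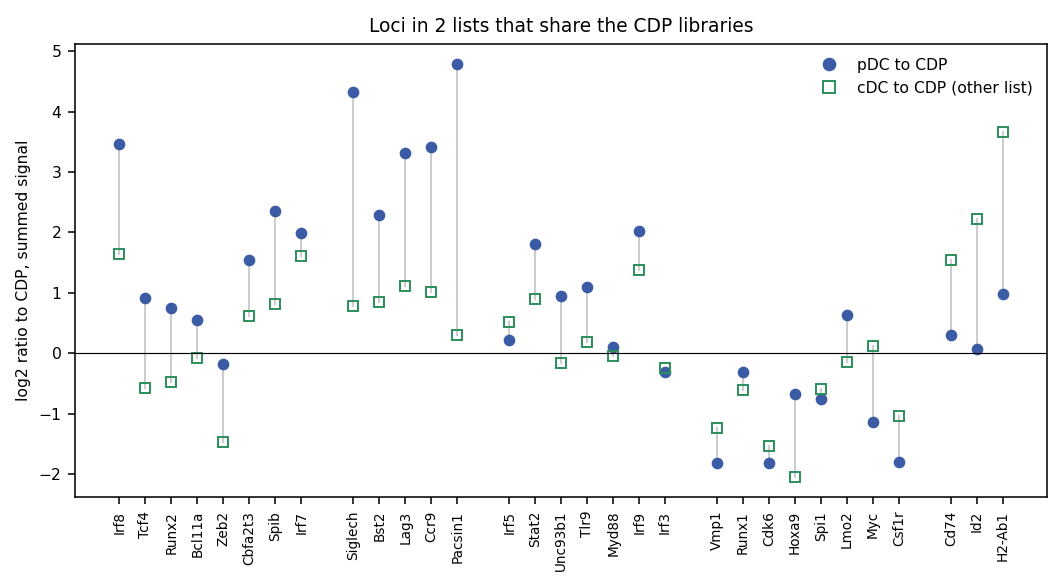
For each locus given in full, the log2 ratio to CDP of the summed signal is shown for pDC (filled circle) and, from the list that shares the CDP libraries, for cDC (open square). At Id2, H2-Ab1 and Cd74 the square stands higher, and at Siglech, Irf8 and Pacsin1 the circle does.

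Markers of other cells that a sort could hold were looked at in the same way, for the 5 of 20 such genes whose position was sure. The B cell genes Pax5 and Ebf1 were both higher in pDC, Pax5 with 924 and 1293 in CDP and 7341 and 7075 in pDC and Ebf1 with 22 and 175 against 1573 and 2306. The T cell gene Cd4, which mouse pDC also express and whose window shares 2 regions with that of Lag3, had 1631 and 1375 against 16881 and 16382. With 50 kb on either side Pax5 came to a log2 difference of 0.94 and Cd4 to 1.12. The list held no region within 10 kb of S100a8, a neutrophil and monocyte gene, or of Hba-a1, an erythroid gene, while windows of 50 kb on either side gave 4.06 and 0.51. The part of other cells in the gains in pDC was not tested. Of the markers of the sorted cells themselves, Siglech, Bst2 and Tcf4 were higher in pDC, and Csf1r and Cd34 were higher in CDP, while Kit was not.

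The steepest regions were 1.1 to 2.4 kb long. Their ranking asked for a minimum signal, and signal is summed over a region, so the ranking favours long regions. Ranked by ratio among separate regions with at least the median signal of their direction, the first gain (chr13:48610501-48612550) was listed at 0 in both CDP libraries and at 2963 and 3256 in pDC. The next were chr1:74846601-74848000, with 1 and 0 in CDP and 1121 and 1215 in pDC, chr16:91795401-91796950, chr11:108122151-108123600 and chr3:10139951-10141300. Of the losses, chr5:144235801-144237200 and chr16:96052901-96054000 were listed at 0 in both pDC libraries, with 711 and 631 and with 751 and 351 in CDP. They were followed by chr16:33776751-33778150, chr12:33725001-33727400 and chr1:134029601-134031050.

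The longest separate regions included named and unnamed loci. Besides those of Irf8 and Siglech, the longest gains were chr16:91442901-91465300, with 5811 and 7494 in CDP and 34206 and 42266 in pDC, and chr1:39425151-39442500, with 2615 and 3018 against 16326 and 21153. Besides Cdk6 and Vmp1, the longest losses were on chromosome 13. Of these, chr13:23828701-23853200 had 43884 and 70994 in CDP and 24804 and 18702 in pDC, chr13:22125701-22137150 was 4.49-fold and chr13:21870051-21880800 was 3.10-fold higher in CDP.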

How the data were processed

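H3K27ac libraries of CDP and pDC (2 each) were compared. Fragments of 200 to 400 bp were precipitated, per the labels. The submitters' processing notes name BWA 0.6.1 and mm9, and the title names THOR, which calls differential peaks. The authors' deposited signals are whole numbers in a unit other than counts, scaled per library and list, so depth is unknown and levels were compared only within a list. Which values belong to which cell type follows the order in the list's name.

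Group means, log2 ratios (pseudocount 1) and separate-library calls were computed with Python 3.11.15, numpy 2.4.6 and pandas 2.3.3, and limma 3.58.1 (R 4.3.3) served as an alternative. The calls were tested on simulated data. In a first simulation for limma, with 200 of 68385 regions changed, it made no call. The simulation was then redesigned, with smoothed noise and 34192 regions changed, and it recovered 79.5% with 653 false calls. Its counts are therefore given only as an alternative.

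Members and gene lists were chosen with earlier results of these data known. All listed genes with a region were counted, and the up to 8 per list with the largest summed signal, the 5 steepest and the 5 longest separate regions per direction were named. Cd34, Tal1, Kit, Cebpa and Mpo were added after their values were seen. Gene positions in mm9 came from memory. A first table had instead held positions of GRCm38 genes shifted until gene starts met acetylated regions. That table was discarded as a conversion between builds, after its results had been seen. Positions noted before the shift were kept, except those in doubt (Irf1, Irf2, Ifnar1, Ifnar2, Ly6d). Those noted later may not be independent of it. Listed genes without a sure position were left out, and 1 other is not reported here.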

Additional observations from a re-analysis of the deposited data

Results flagged for a closer look

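At the loci of 4 of the 41 genes every library moved one way from CDP to pDC and the other way from CDP to cDC. The share of such windows over the genome was not computed. Both ratios use the same CDP libraries, the lists are scaled separately, and the difference was not tested. The regions summed also differ, with 7 at Pax5 in the CDP and pDC list and 3 in the CDP and cDC list. Tcf4 had a log2 ratio of 0.91 in pDC and -0.58 in cDC. Runx2 had 0.75 in pDC and -0.48 in cDC. Pax5 had 2.70 in pDC and -0.99 in cDC. Myc went the other way, with -1.14 in pDC and 0.12 in cDC. That 0.12 is smaller in size than the shift of -0.30 that equal totals made in the CDP and pDC list. The CDP and cDC list was not rescaled. A further list sets cDC against pDC directly. Its log2 ratio of pDC to cDC was 1.54 at Tcf4, 1.32 at Runx2, 3.44 at Pax5 and -1.20 at Myc.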

How the results depend on the processing

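Over all autosomal regions the median log2 ratio of 0.03 became -0.26 with equal autosomal totals and 0.25 for regions of at least 500 bp, and ran from -0.079 to 0.13 when single libraries were left out. The counts of 27250 gains and 25992 losses became 22144 and 33096 with equal totals, and 19311 and 16384 for regions of at least 500 bp. Asking for a ratio of at least 2 left 18002 and 14781. At an adjusted p under 0.05, limma called 17471 and 13818 as deposited and 15656 and 21746 with equal totals. The list had been chosen for differences in the same 4 libraries, so this adjusted p does not give a false discovery rate. Leaving out single libraries gave 29095 to 33265 gains and 27702 to 32533 losses. With a library left out, separate calls can only be kept or added, so neither count could fall. With equal totals, 31 of 34 separate loci, markers included, stayed separate, and the loci of the 5 lists went from 21 higher in pDC and 10 higher in CDP to 18 and 13. Cebpa, H2-Ab1 and Cd74 did not stay separate, and Cd74 turned to -0.0084. With 50 kb on either side Cd34 and Cebpa overlapped, and Cebpa turned to -0.19. The wider window also lowered the log2 difference to 2.89 at Irf8, 3.38 at Siglech and 2.48 at Ccr9. A minimum mean of 100 and a minimum length of 500 bp ended no call at a locus, and Mpo had no region of that length. A pseudocount does not enter the separate calls, so the setting of 5 could change only the log2 ratios. No paired analysis was possible because the deposited values carry no replicate number. Scaling to equal totals would take away any real net gain over the list.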

Other observations

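Summed in fixed windows of 100 kb, 5357 of 10970 windows were separate and higher in pDC, or 48.8%, and 3511 were higher in CDP, or 32.0%. The largest net gain lay in the window that holds Irf8, with 11313 and 16134 in CDP and 99336 and 98296 in pDC. The next gains were in windows with no named locus, chr8:86200001-86300000 with 30217 and 31399 against 87573 and 126928, and chr15:86000001-86100000 with 33257 and 45233 against 105380 and 116467. The largest net loss was in the Vmp1 window, with 112799 and 105071 in CDP and 31380 and 33465 in pDC. It was followed by chr13:23600001-23700000, with 90100 and 145841 against 47249 and 37062, and by chr13:21800001-21900000, with 58112 and 95445 against 25858 and 19039. The second-listed CDP library was higher than the first at both of these windows of chromosome 13.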
